A study of Mus musculus with 12 samples.

Results

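Broad H3K27ac domains were the intervals of 20 kb or more in the deposited interval table of the 4T1 line, which derives from a mouse mammary tumour and is used as a model of metastatic breast cancer. The rule used interval length alone, and 1707 of 126464 intervals met it. These 1707 domains made up 1.35% of the intervals but covered 61683 kb, 21.7% of all interval bases. All 1707 passed the filter on low values, none was at 0 reads in any library, and the lowest count of a domain in a library was 304 reads. Chromatin carrying acetylated lysine on histone H3 was precipitated with an H3K27ac antibody from wild-type cells treated for 48 h, in 12 libraries of 6 treatments with 2 libraries each. Cells received vehicle, acetate alone, etomoxir alone or with acetate, or etomoxir + SB204990 without or with acetate. Acetate was used at 5 mM and both inhibitors at 50 µM. Etomoxir inhibits carnitine palmitoyltransferase 1, the entry step of long-chain fatty acids to mitochondrial oxidation, and SB204990 inhibits ATP-citrate lyase, which makes cytosolic acetyl-CoA. Every library carried 7.5% human chromatin as a spike-in, and each value is a read count multiplied by the library's spike-in factor (a scaled read). One library of each treatment shared a title suffix, called set 1 or set 2 here. What the suffix stands for is not stated, so p-values measure only the spread between these libraries, which may be technical.

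H3K27ac marks active promoters and enhancers. Acetyl groups are placed by p300/CBP using acetyl-CoA and removed by histone deacetylases, and bromodomain proteins bind the acetylated tails. Long uninterrupted stretches of the mark often cover clustered enhancers at genes that set the identity of a cell or drive its growth, and in tumour cells at oncogenes such as Myc.

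The promoters of 4 domains are shown because their genes carry results given further on: Pdk4, Cpt1a and Plin2 in the inhibitor comparisons, and Gata3 as the densest domain with a coding start. Each sequence runs 5′ to 3′ on the gene's strand from RefSeq (GRCm38.p6), from 250 bases before to 50 bases after the start site. Pdk4 lies at chr6:5496229-5496528 on the minus strand, Cpt1a at chr19:3323051-3323350 on the plus strand, Plin2 at chr4:86670010-86670309 on the minus strand and Gata3 at chr2:9878551-9878850 on the minus strand. Capitals mark matches on either strand to any of 6 motifs, the AP-1 site TGANTCA, the GC box GGGCGG, the CCAAT box CCAAT, the E-box CACGTG, the TATA box TATAAA and the PPAR hexamer AGGTCA.
Pdk4: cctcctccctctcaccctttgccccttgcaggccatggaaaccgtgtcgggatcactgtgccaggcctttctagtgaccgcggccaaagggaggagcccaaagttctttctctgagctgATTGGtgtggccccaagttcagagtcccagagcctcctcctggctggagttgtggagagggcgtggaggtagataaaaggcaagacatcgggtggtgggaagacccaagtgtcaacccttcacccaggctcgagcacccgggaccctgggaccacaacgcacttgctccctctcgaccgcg
Cpt1a: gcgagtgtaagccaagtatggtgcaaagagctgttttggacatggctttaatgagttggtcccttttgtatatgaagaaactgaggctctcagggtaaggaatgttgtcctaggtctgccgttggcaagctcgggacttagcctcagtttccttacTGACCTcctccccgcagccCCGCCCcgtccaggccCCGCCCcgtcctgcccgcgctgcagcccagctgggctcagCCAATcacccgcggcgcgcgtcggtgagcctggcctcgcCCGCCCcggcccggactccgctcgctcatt
Plin2: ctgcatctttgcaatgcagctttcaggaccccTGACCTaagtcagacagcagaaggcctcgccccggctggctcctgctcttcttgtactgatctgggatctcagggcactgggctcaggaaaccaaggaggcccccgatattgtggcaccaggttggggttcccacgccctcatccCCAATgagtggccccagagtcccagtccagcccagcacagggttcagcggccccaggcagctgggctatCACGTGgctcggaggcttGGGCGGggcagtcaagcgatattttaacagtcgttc
Gata3: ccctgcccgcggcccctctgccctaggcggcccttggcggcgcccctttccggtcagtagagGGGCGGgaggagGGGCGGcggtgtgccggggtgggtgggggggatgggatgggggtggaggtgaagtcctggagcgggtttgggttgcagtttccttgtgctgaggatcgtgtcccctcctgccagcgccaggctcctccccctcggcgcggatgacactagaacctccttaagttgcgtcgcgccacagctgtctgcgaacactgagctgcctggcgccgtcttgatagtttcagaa

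The Pdk4 promoter held 1 CCAAT box and no GC box, and 12 CpG dinucleotides. Cpt1a had 3 GC boxes, 1 CCAAT box, 1 PPAR hexamer and 22 CpGs. In Plin2 there were 1 GC box, 1 CCAAT box, 1 E-box, 1 PPAR hexamer and 10 CpGs. The Gata3 window had 2 GC boxes and 22 CpGs. A match is a match of letters and not evidence of binding. Of the domains, 1081 held at least 1 RefSeq promoter and 626 held none, and 2578 promoter windows of 2047 genes fell inside a domain. The GC box occurred in 57.7% of these windows, in 58.0% of the 12214 windows inside shorter intervals, in 17.4% of the 18059 windows outside any interval, and in 35.7% of all 32851 windows. The AP-1 site occurred in 7.68%, 5.93%, 9.10% and 7.81% of the same 4 sets, and the PPAR hexamer in 14.2%, 12.8%, 18.9% and 16.3%. The CCAAT box stood in 34.4%, 37.3%, 37.9% and 37.4% of them, the E-box in 8.46%, 9.62%, 5.29% and 7.15%, and the TATA box in 7.99%, 7.49%, 18.6% and 13.6%. For the GC box and the TATA box the windows in domains were close to those in shorter intervals. They had a median of 17 CpGs, against 20 in shorter intervals and 4 outside intervals.

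The domains were long genic stretches. The median length was 28911 bp, the middle 50% ran from 23345 to 40316 bp, and the range was 20026 to 185673 bp. The deposited annotation placed 985 in introns (57.7%), 291 between genes (17.0%), 179 at promoters (10.5%), 142 at transcription termination sites (8.32%) and 110 in exons (6.44%). Among intervals under 20 kb, 29.5% were between genes and 6.55% at promoters. A start site of a protein-coding gene (GENCODE) lay in 1030 domains (60.3%), in 41.6% of the 3622 intervals of 10 to under 20 kb and in 6.54% of all intervals under 20 kb. Longer intervals have more room for a start site, and the part of length in these shares was not tested. Of the domains, 410 held at least 2 coding start sites, the highest number was 14, and 218 overlapped no coding gene.

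Signal per base was also higher in longer intervals. The median over domains was 43.5 scaled reads per kb (mean of the 12 libraries), against 35.1 in intervals of 10 to under 20 kb and 16.3 in all intervals under 20 kb. Within the domains it was 40.5 in the 910 of 20 to under 30 kb, 45.2 in the 527 of 30 to under 50 kb, 51.9 in the 235 of 50 to under 100 kb and 55.7 in the 35 of 100 kb or more. The share with a coding start site was 53.0%, 64.3%, 77.4% and 77.1% in these 4 classes. Length and level come from the same experiment and are not independent, so the trend is a description. Of the shortest 3 domains, the first was 20026 bp in Dock5 (nearest gene Gm31107, 51.8 scaled reads per kb). The others were 20035 bp at Gt(ROSA)26Sor (58.0) and 20042 bp between genes (nearest gene Eif3h, 41.0). The 3 intervals just under the limit were Tbc1d10b (19994 bp, 44.7), Dbn1 (19993 bp, 39.8) and Pdk3 (19968 bp, 33.1).

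**Figure D1:**
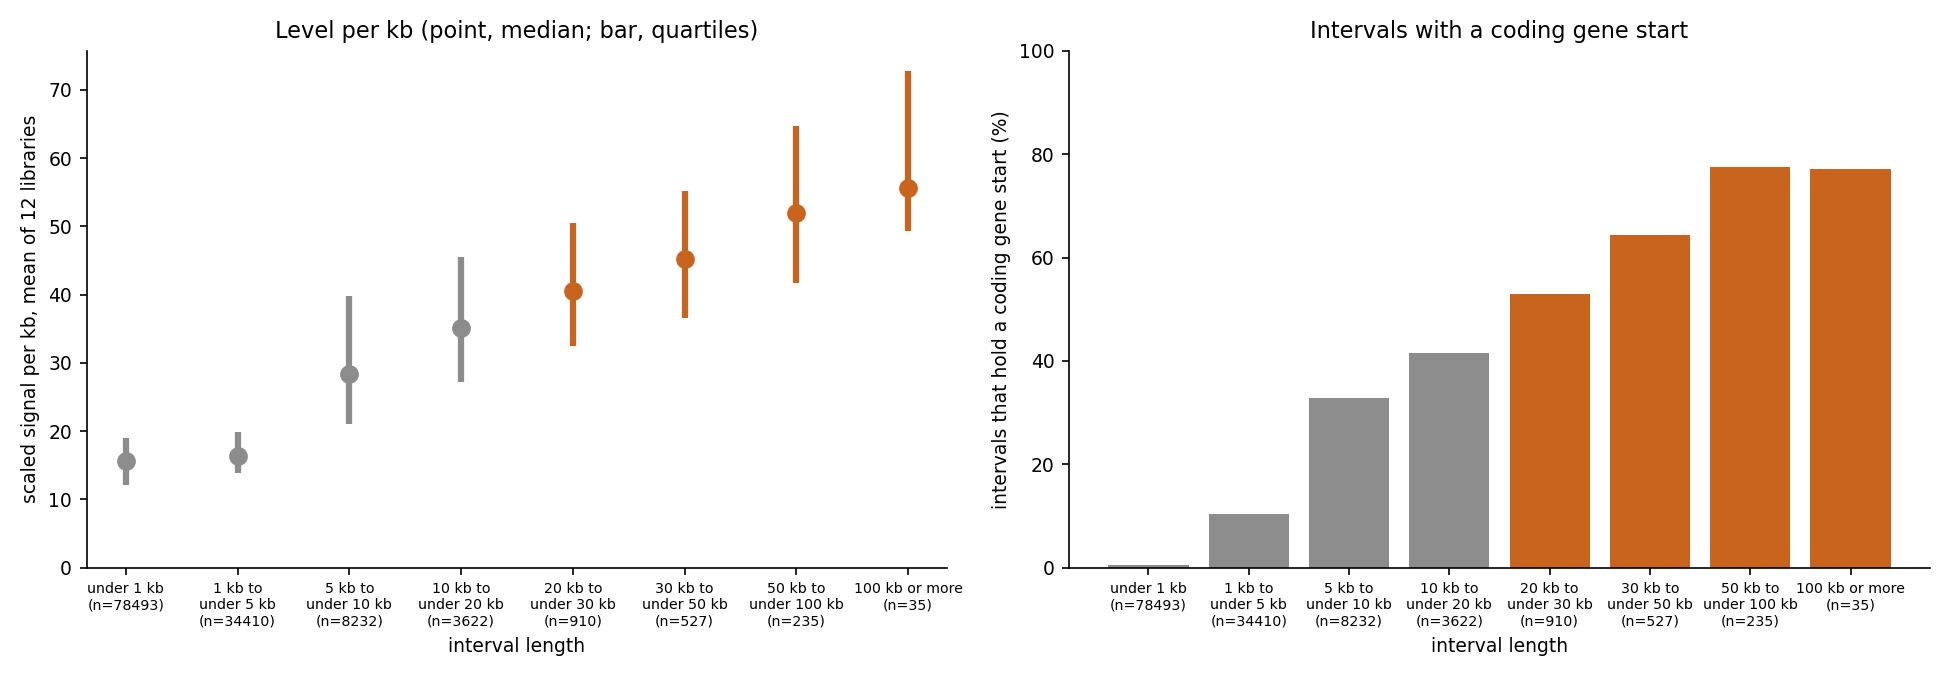
Left, scaled reads per kb (mean of 12 libraries) in 8 length classes of intervals, points at the median and bars from the 25th to the 75th percentile; right, the percentage of intervals in each class that hold a coding start site. Median signal rises with length from 15.6 per kb under 1 kb to 55.7 per kb at 100 kb or more, and the share rises from 0.469% to 77.4% at 50 to under 100 kb and is 77.1% in the longest class.

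The domains were unevenly spread over the genome. Chromosome 11 held 156, 12.8 per 10 Mb, chromosome 19 held 64 (10.4 per 10 Mb) and chromosome 15 held 102 (9.80 per 10 Mb). Chromosome X held 14 (0.819 per 10 Mb) and chromosome Y none. Intervals of any length were unevenly spread as well. There were 8205 on the 122 Mb of chromosome 11 and 3120 on the 61.4 Mb of chromosome 19. Chromosome 15 (104 Mb) had 5802 and chromosome X (171 Mb) 3040. The part of this in the domain counts was not tested. Domains no more than 100 kb apart formed 383 runs that took in 1002 of them, and 705 stood alone. The runs with the most members held 7 domains each. One was at chr2:167468012-168211868 and contained the starts of Snai1 and Cebpb, which encode a repressor of E-cadherin and a basic leucine zipper factor, together with Ptpn1 and Adnp. The others lay at chr19:5678614-6142628, around the noncoding RNA Neat1 and Ltbp3, and at chr17:34832804-35250954, around Ehmt2, Hspa1b and Bag6. A run with more signal was at Myc, the growth-promoting transcription factor, and its noncoding neighbour Pvt1. Its 6 domains at chr15:61974212-62339108 covered 321256 bp and summed to 28533 scaled reads (mean of the 12 libraries), against 22182 for the Snai1 run, 19219 for the Neat1 run and 12362 for the Ehmt2 run.

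The longest domain, at chr8:11240595-11426267, spanned 185673 bp and held the divergent starts of Col4a1 and Col4a2, the chains of basement membrane collagen IV. Its scaled reads were 7075 and 8364 in the vehicle libraries, 10734 and 11038 with acetate, 8959 and 9073 with etomoxir, 15460 and 15118 with etomoxir + acetate, 6256 and 7813 with etomoxir + SB204990, and 10306 and 13885 with etomoxir + SB204990 + acetate. Acetate libraries were above their counterparts without acetate in every background, with no overlap. Among the 5 longest were also the domains of the septin gene Sept9 (174134 bp, nearest gene Gm16045), Pvt1 (168223 bp) and Sbno2 (166985 bp, with the starts of 10 coding genes). The Pvt1 domain at chr15:62024683-62192905 had the highest total of all domains, a mean of 15602 scaled reads or 92.7 per kb. In vehicle it held 11669 and 13601 scaled reads, and in etomoxir + acetate 22946 and 22209.

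Density gave a different order from length. The densest 3 domains were all noncoding, nearest to Gm49498 on chromosome 15 upstream of Myc, at 231, 224 and 218 scaled reads per kb and 25630, 37182 and 23628 bp long. The next, at chr9:41570667-41601037 in the long noncoding gene Gm28119, reached 209 per kb and contains the precursor of miR-125b. Gata3, a transcription factor of the luminal mammary lineage, came next at 161 per kb over chr2:9856177-9892030. The Myc domain itself, at chr15:61974212-62002965, had 141 per kb. No input library was used, so the part of DNA copy number in these densities and in the Myc and Pvt1 totals was not tested. MicroRNAs, short RNAs that repress messages matched by their seed, had named genes in 132 domains (159 genes). Beside miR-125b, the same cluster's miR-100 lay in a separate domain nearest to Gm48742 that also holds Mirlet7a-2. The mature RNAs from RefSeq (GRCm38.p6) are printed to show that these 2 domains carry different seeds, with bases 2 to 8 in capitals, at chr9:41531437-41531458 and chr9:41581940-41581961, both on the plus strand.
miR-100-5p: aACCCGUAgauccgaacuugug
miR-125b-5p: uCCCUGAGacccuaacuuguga

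Genes of the 8 lists drawn up for these cells differed in how often they had a domain, either as the nearest gene or with their start inside one. Of 23495 genes with any interval, noncoding genes included, 2573 (11.0%) had a domain. Of the 11398 coding genes with a start in an interval, 1857 (16.3%) had it in a domain. The share was 29 of 52 oncogenes and growth regulators (55.8%, among them Myc, Ccnd1, Runx1, Smad3 and Hmga2), 8 of 16 AP-1 and partner genes (50%, among them Junb, Fosl1 and Fosl2) and 19 of 41 EMT and matrix genes (46.3%, among them Snai1, Fn1, Sparc and Mmp14). Epithelial genes followed with 13 of 33 (39.4%, among them Krt8, Krt18, Cdh1 and Gata3). Of 25 genes for writers, erasers and readers of histone acetylation 6 had a domain (24%, among them Brd2, Brd3, Hdac5, Hdac7 and Kat2a). Among fatty acid oxidation and PPAR target genes it was 8 of 37 (21.6%: Acads, Acsl4, Acsl5, Cpt1a, Pdk4, Plin2, Pnpla2 and Ppard). Acetyl-CoA supply and lipid synthesis genes had 2 of 27 (7.41%, among them Srebf1). Acly, whose enzyme SB204990 inhibits, was not among them. Genes of other cell types had 1 of 14 (7.14%), Apoa1, which was only the nearest named gene of a domain in Sik3. The lists were chosen with results of these data known, and no test was made on these shares.

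**Figure D2:**
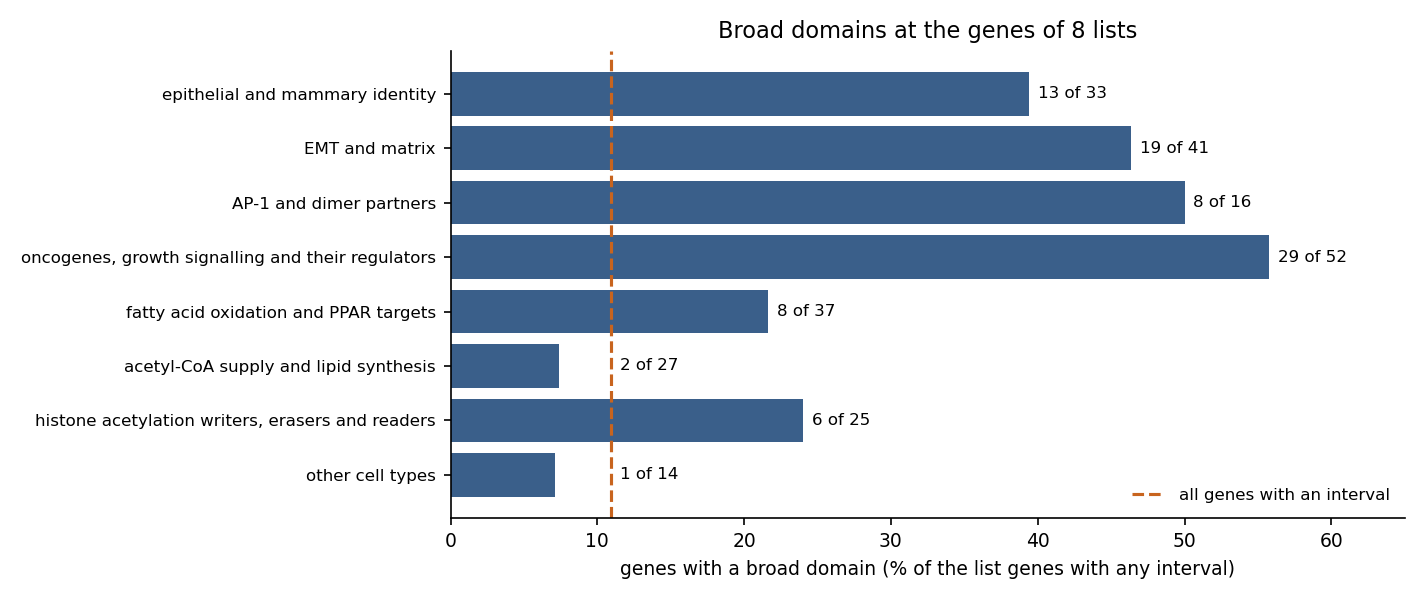
Percentage of the genes of each list, among those with any interval, that have a broad domain; the dashed line is the 11.0% of all such genes, noncoding ones included. Oncogenes and growth regulators stand at 55.8%, and the lists of acetyl-CoA supply and of other cell types fall under the line at 7.41% and 7.14%.

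The line's label was compared with marker genes. Start sites of 13 of 14 epithelial markers lay in an interval, 7 of them in a broad domain, and those of 3 of 24 markers of blood, endothelium, fat, muscle, neurons and liver did (Spi1, Csf1r and Pecam1), none in a broad domain. Libraries held between 7179165 and 16676442 reads in intervals, with a median of 13447277.5. The library with the fewest reads, etomoxir + SB204990 set 2, stood apart. It had 10.06% of its reads in intervals under 1 kb, against 4.91% to 6.91% in the other 11, and its read density in domains was 1.57 times that in the remaining intervals, against 1.77 to 1.96 times.

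The share of a library's reads that fell in broad domains does not depend on the spike-in. It was 35.3% and 33.8% in vehicle, 35.0% and 33.7% with acetate, 33.8% and 34.5% with etomoxir, 32.9% and 33.4% with etomoxir + acetate, 35.3% and 30.4% with etomoxir + SB204990, and 34.1% and 34.8% with etomoxir + SB204990 + acetate. Apart from the 30.4% of etomoxir + SB204990 set 2, libraries lay within 32.9% to 35.3%. The libraries of etomoxir + acetate lay below those of vehicle, acetate, etomoxir and all 3 agents, and the other treatments overlapped. The 6 treatments accounted for 27.2% of the sum of squares (exact permutation test, p = 0.844). Averaged over the 3 backgrounds, the share with acetate minus that without was 0.169 percentage points (exact two-sided permutation test within backgrounds, p = 0.944). In 5 of the 6 same-set pairs the share was lower with acetate, with differences from -1.17 to -0.0969 points, and in the pair with the low library it was higher by 4.45 points. Without etomoxir + SB204990 set 2 the acetate difference was -0.652 points (p = 0.130, exact permutation test). Without etomoxir + SB204990 set 1 the treatments took 86.1% of the sum of squares. That fit leaves the low library alone in its treatment, so its whole deviation counts as between treatments.

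The summed scaled signal of the domains did differ with acetate. Per kb of domain it was 39.0 and 42.1 scaled reads in vehicle and 57.2 and 54.6 with acetate. It was 43.9 and 43.9 with etomoxir and 72.9 and 69.9 with etomoxir + acetate, and 30.6 and 35.3 with etomoxir + SB204990 and 47.5 and 63.6 with all 3 agents. The acetate libraries did not overlap their counterparts in any background. Summed signal rose by 0.635 on the log2 scale with acetate (exact two-sided permutation test over 216 arrangements, p = 0.00926, the smallest it can give) and all 6 pairs of the same set showed it, with folds from 1.30 to 1.80. With spike-in factors set aside and each library's interval total made equal, the difference was 0.0087 (p = 0.935, exact permutation test). The rise in domains thus went with the library-wide scaled total and was not measured apart from the spike-in factor. In a bulk library, more acetylation per cell and more cells carrying the mark at a site cannot be told apart.

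**Figure D3:**
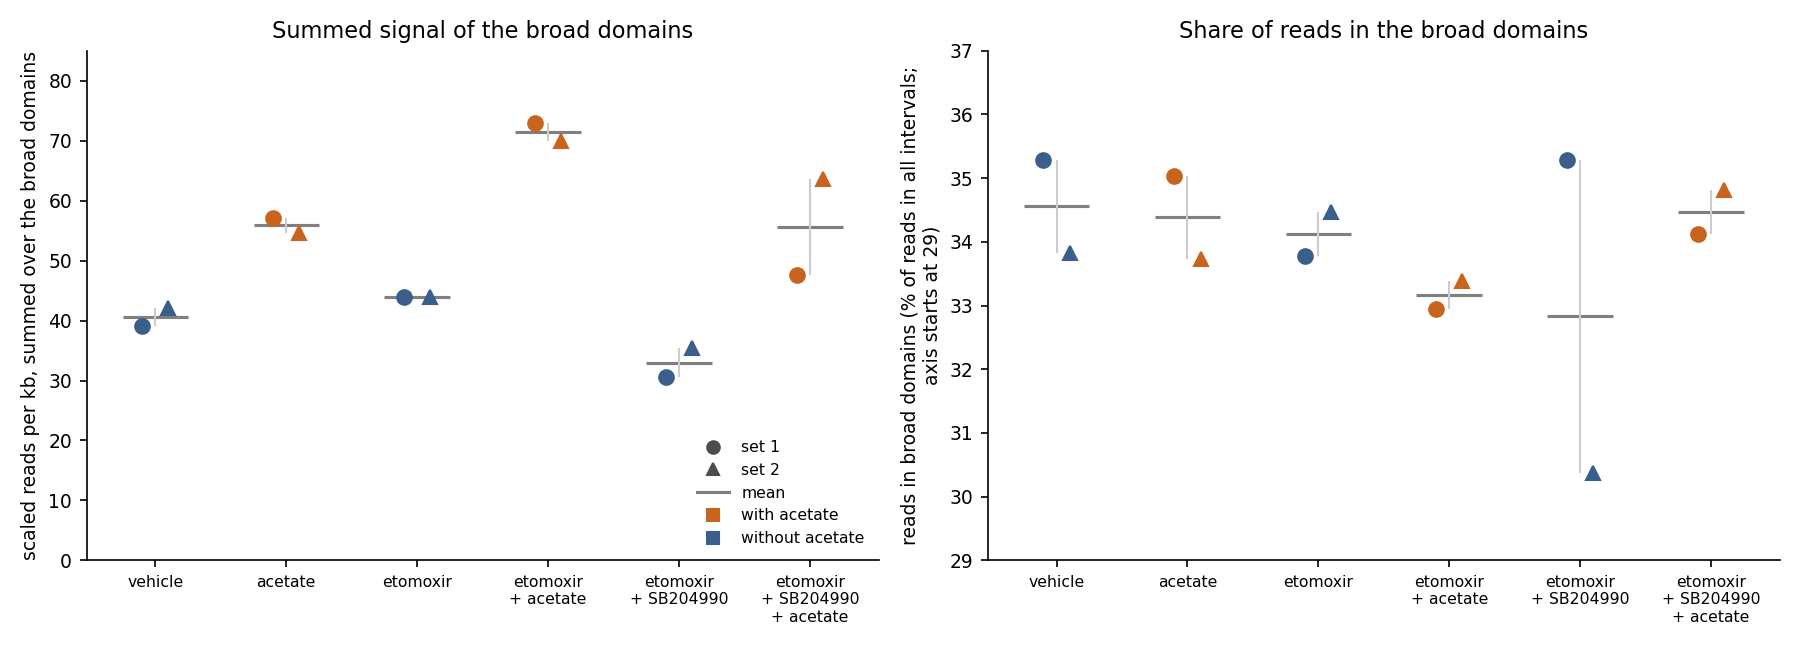
Left, scaled reads per kb summed over the 1707 domains in each of the 12 libraries; right, the percentage of each library's interval reads that fell in the domains, on an axis that starts at 29%. Each point is 1 library (circle, set 1; triangle, set 2; orange with acetate, blue without), and grey bars are group means. Acetate libraries are higher than their counterparts on the left. On the right they overlap them except in etomoxir, where they are lower, and etomoxir + SB204990 set 2 is lowest at 30.4%.

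Each domain was then compared between treatments with limma on log2(scaled value + 1), fitted over all 63903 intervals with a mean of at least 10 scaled reads, and called at an adjusted p under 0.05. The comparisons share vehicle, acetate, etomoxir and inhibitor libraries, so their counts are not independent of one another. Acetate against vehicle called 9 domains higher and none lower by limma, against 0.0955% of all tested intervals higher. Before adjustment 1582 (92.7%) were under 0.05, against 80.4% of the intervals of 10 to under 20 kb and 26.5% of all tested intervals. The count of 9 called domains was 0 without the filter or without the intensity trend, and moved widely without single libraries. It was 356 with a block for set and 1200 by DESeq2. The domains' median log2 fold change was 0.47, with 0.48 over all tested intervals, and 1704 domains were above 0 in both sets. In etomoxir + acetate against etomoxir 1687 domains were called higher and none lower, against 56.4% of intervals (before adjustment 1692, against 65.6%), with medians of 0.74 and 0.83. Adding acetate to both inhibitors called 1704 higher and none lower, against 27.4% of intervals higher and 0.00313% lower (before adjustment 1706, against 39.9%), with medians of 0.74 and 0.62. Without the intensity trend this last count was 0 and the etomoxir count 1118. Without etomoxir + SB204990 replicate 1 it was 798 and without replicate 2 of all 3 agents 1077, and the etomoxir count was 1003 without etomoxir + acetate replicate 1. Averaged over the 3 backgrounds, 1707 of 1707 were called higher, against 77.2%, with medians of 0.65 and 0.64. By set, the medians of the domains and of all tested intervals with acetate added to both inhibitors were 0.68 and 0.79 in set 1 and 0.79 and 0.41 in set 2, which holds the low library. On average they were 0.67 and 0.74 in set 1 and 0.63 and 0.56 in set 2. Their shares called stood above the background, as did those of the 3621 tested intervals of 10 to under 20 kb (3568, 3502 and 3619 called higher in the last 3 comparisons). Reads per feature differed too, with a median of 949 to 2474 reads per domain in a library, and the part this has in the counts was not tested.

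After rescaling each library by the median of ratios, which sets the typical interval equal between libraries, no domain was called in any acetate comparison (0 to 0.00156% of all tested intervals were called in either direction), and the domains' medians were -0.03 against vehicle, -0.10 in etomoxir, 0.12 in both inhibitors and -0.004 on average. The acetate changes in the 3 backgrounds were compared directly. No domain was called different between acetate alone and acetate in etomoxir (limma 0, edgeR 0 and DESeq2 0, with 12, 14 and 3 under 0.05 before adjustment), against 0% of all tested intervals. The 12 of limma are 0.703% of the domains, below the 1.79% of all tested intervals under 0.05 before adjustment. The same held for acetate in both inhibitors (0 by each tool, with 0, 1 and 6 under 0.05 before adjustment), against 0.00156% of all tested intervals lower and 0.246% under 0.05 before adjustment by limma. The absence of calls does not show that the changes were alike. The median difference from the change with acetate alone was 0.27 on the log2 scale in etomoxir, with 1684 of 1707 domains above 0 and set medians of 0.20 and 0.34. In both inhibitors it was 0.27, with 1703 above 0 and set medians of 0.11 and 0.42. Over all tested intervals the medians were 0.33 and 0.15. After median-of-ratios scaling the domains' medians were -0.07 and 0.15, so the first changed sign.

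**Figure D4:**
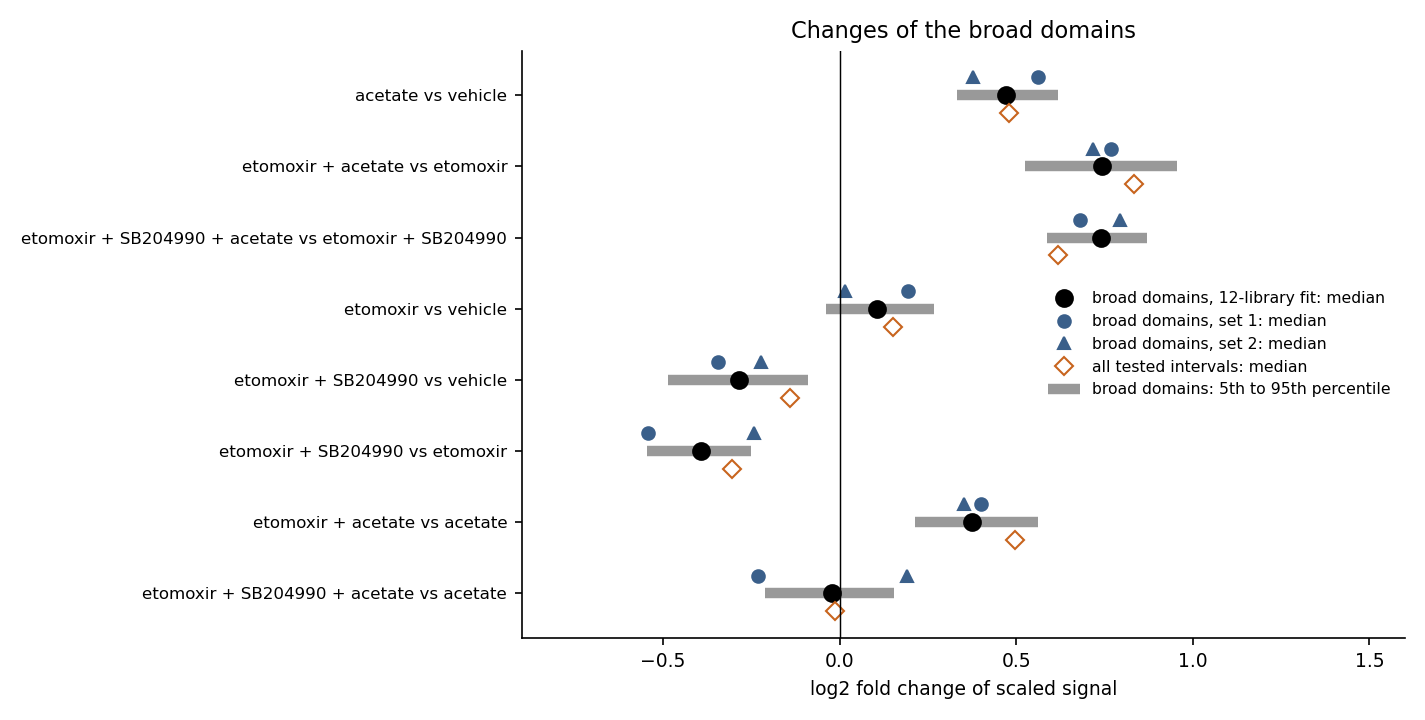
Log2 fold changes of the 1707 domains in 8 comparisons, with the median, the 5th to 95th percentile, the medians of set 1 and set 2, and the median of all 63903 tested intervals. The acetate comparisons centre at 0.47 and 0.74 with both sets above 0, and those of etomoxir + SB204990 against vehicle and against etomoxir centre at -0.28 and -0.39.

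Domains were spread around these medians. From the 5th to the 95th percentile it ran from 0.33 to 0.62 against vehicle, from 0.52 to 0.96 in etomoxir and from 0.59 to 0.87 in both inhibitors. The median of the average change was 0.66 in the 1030 domains with a coding start inside, 0.64 in the 677 without, and 0.65 in the 35 domains of 100 kb or more. As a description over 1707 domains, which share libraries and depth, the changes of set 1 and set 2 had a Spearman rho of 0.68 against vehicle and 0.82 in etomoxir but -0.34 in both inhibitors. Denser domains changed less with acetate in etomoxir (rho of change with signal per kb -0.57 in set 1 and -0.60 in set 2). In both inhibitors the relation had opposite signs in the sets (-0.61 and 0.63), with the low library in set 2.

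The domain with the largest average acetate change was intronic, at chr8:45593493-45615879 in Sorbs2, an adaptor of the cytoskeleton (nearest gene Gm16351, 22387 bp). It held 634 and 692 scaled reads in vehicle and 1303 and 1303 with acetate, 592 and 556 with etomoxir and 1231 and 1201 with etomoxir + acetate, and 337 and 501 with both inhibitors and 737 and 1059 with all 3 agents. The 6 acetate libraries were all above the 6 without acetate. Its average change was 2.07-fold (log2 1.05, SE 0.10, limma adjusted p = 3.4e-19). After median-of-ratios scaling it was 0.40 on the log2 scale (adjusted p = 0.35, limma). A domain nearest Gm49985 (chr17:79815590-79840942) and the nearby Cyp1b1 domain, which holds the start of a cytochrome P450 gene, changed by 1.95-fold and 1.93-fold on average. In etomoxir the largest acetate change was that of the complement gene C3, against 1.08 on the log2 scale for the Sorbs2 domain. C3 had 496 and 408 scaled reads with etomoxir and 1039 and 940 with etomoxir + acetate, a 2.19-fold difference (log2 1.13, SE 0.19, limma adjusted p = 9.5e-06). In vehicle C3 held 446 and 530 and with acetate 750 and 774. The other domains called against vehicle were those nearest Galk2 (1.80-fold, adjusted p = 0.011, limma), 4933427D06Rik (1.78-fold, adjusted p = 0.03, limma), Gm17057, Gm15640, Gm26878 and Nos2, the inducible nitric oxide synthase, the last 4 named after their values were seen.

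At the other end, 20 domains were not called with acetate in etomoxir. In that comparison 98.8% of the domains and 56.4% of all tested intervals were called higher. The 20 included Gata3, Trps1, Nfia, Foxc1, Irx2, Ccnd1 and 3 domains of the Hist1 histone gene cluster, and were named after their values were seen. Trps1, a GATA-type repressor, had 6078 and 7366 scaled reads with etomoxir and 6947 and 7101 with etomoxir + acetate, which overlap. Gata3 had 5602 and 6466 with etomoxir and 7051 and 7192 with etomoxir + acetate, which do not.

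Etomoxir against vehicle called 2 domains higher, against 0.0563% of intervals, and 1 lower, against 0.00626%. The total of 3 ran from 1 to 7 without single libraries, and was 7 with equal totals and 0 without the intensity trend. The 2 were Pdk4 and Cpt1a, both genes of fuel choice, and the median over all domains was 0.11, against 0.15 over all tested intervals. By set, the domains' medians were 0.19 in set 1 and 0.02 in set 2, and those of all tested intervals 0.34 and -0.05. Pdk4 encodes a kinase that shuts off pyruvate dehydrogenase and is a known PPAR target. Its domain at chr6:5495394-5519590 (24197 bp, with the promoter shown above) held 247 and 297 scaled reads in vehicle and 1123 and 1201 with etomoxir. It held 400 and 393 with acetate and 1710 and 1726 with etomoxir + acetate, and 935 and 1093 with etomoxir + SB204990 and 1304 and 1680 with all 3 agents. Every library with etomoxir was above every library without it. The domain was 4.28-fold higher with etomoxir than with vehicle (log2 2.10, SE 0.18, limma adjusted p = 2.5e-26) and 4.33-fold higher in etomoxir + acetate than in acetate (log2 2.11, adjusted p = 8.4e-27, limma). It was 3.72-fold higher in etomoxir + SB204990 than in vehicle (log2 1.90, adjusted p = 5.8e-21, limma) and 3.73-fold higher in all 3 agents than in acetate (log2 1.90, adjusted p = 5.1e-21, limma). After median-of-ratios scaling the 4 changes were 1.93, 1.61, 2.02 and 1.91 on the log2 scale with adjusted p = 0.00012, 0.0013, 3.1e-05 and 7.8e-05 (limma) and all 4 calls remained. Of 10 alternatives to the processing 8 kept each of them. They were lost when shares of reads were multiplied by the factors and when the fit had no intensity trend. Of all tested intervals, 0.0344%, 0.00782%, 0.0735% and 0.0516% were called higher in these 4 comparisons after that scaling.

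Cpt1a encodes the enzyme that etomoxir blocks. Its domain at chr19:3320685-3347179 (26495 bp) held 590 and 756 scaled reads in vehicle, 988 and 1036 with acetate, 1266 and 1322 with etomoxir, 2077 and 1964 with etomoxir + acetate, 1007 and 1172 with etomoxir + SB204990, and 1529 and 2098 with all 3 agents. Libraries with etomoxir were above those without it at the same acetate state. The change was 1.94-fold against vehicle (log2 0.95, SE 0.18, limma adjusted p = 0.00026), 1.99-fold in acetate (log2 1.00, adjusted p = 4e-05, limma) and 1.77-fold for all 3 agents against acetate (log2 0.82, adjusted p = 0.0082, limma). For etomoxir + SB204990 against vehicle it was 1.63-fold with an adjusted p = 0.069 (limma), which misses the threshold. After median-of-ratios scaling these 3 called changes were 0.79 (adjusted p = 0.70, limma), 0.49 (adjusted p = 0.96, limma) and 0.83 (adjusted p = 0.26, limma), and all 3 calls were lost. Without single libraries the call against vehicle was kept in 9 of 12 fits, that in acetate in 10 and that for all 3 agents in 5, and over the other alternatives in 7, 7 and 6 of 10.

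**Figure D5:**
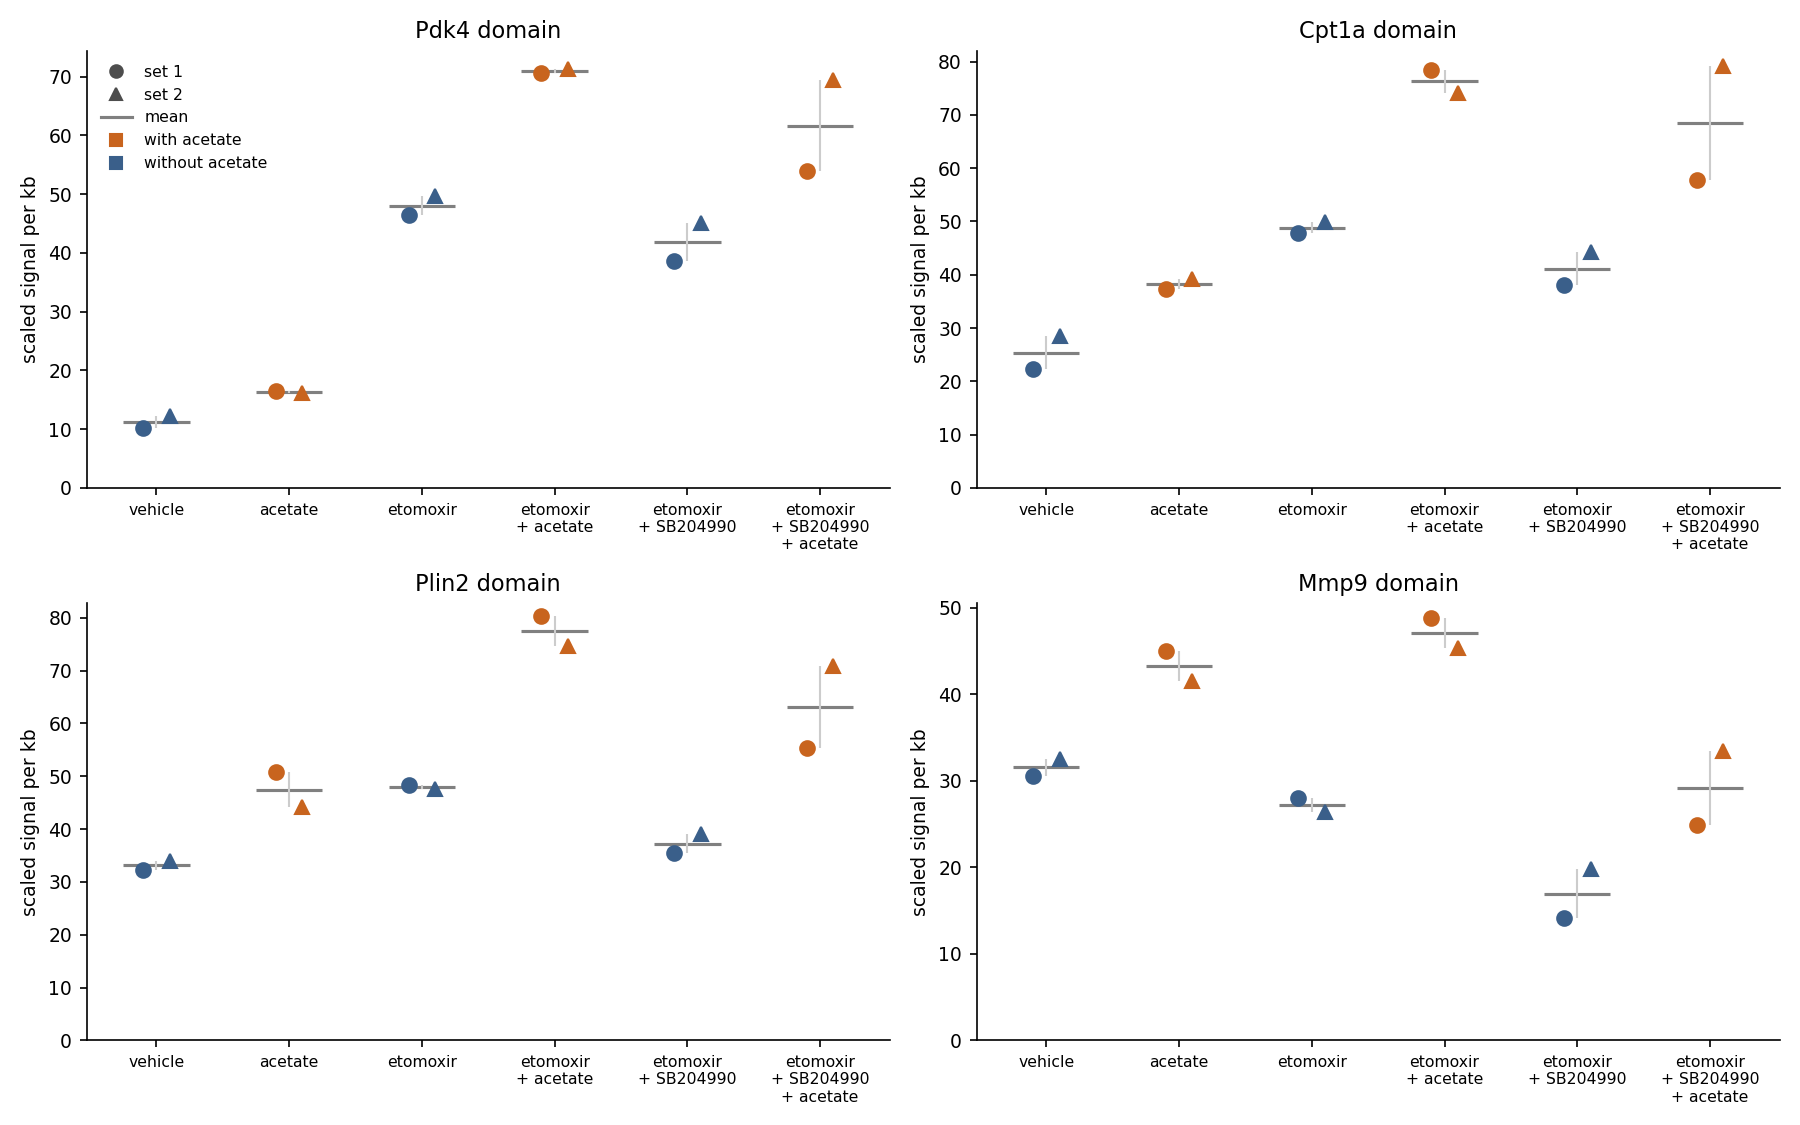
Scaled reads per kb in each library for the Pdk4, Cpt1a, Plin2 and Mmp9 domains, 2 libraries per treatment (circle, set 1; triangle, set 2) with the group mean as a grey bar. Pdk4 separates all libraries with etomoxir from all without it, Cpt1a and Plin2 are higher with etomoxir by smaller factors, and Mmp9 is lowest with etomoxir + SB204990.

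In acetate, etomoxir called 10 domains higher and 0 lower, against 0.155% of intervals higher, with a median of 0.38 over the domains and 0.50 over all tested intervals. Beside Pdk4 and Cpt1a these included Plin2, the coat protein of lipid droplets. Its domain at chr4:86651404-86696692 held 2301 and 1997 scaled reads with acetate and 3639 and 3376 with etomoxir + acetate (1.63-fold, log2 0.71, SE 0.17, limma adjusted p = 0.028). It held 1463 and 1540 in vehicle, 2188 and 2154 with etomoxir, 1605 and 1769 with etomoxir + SB204990 and 2508 and 3212 with all 3 agents. The groups with and without etomoxir did not overlap at either acetate state. Asb4, an ankyrin repeat gene beside Pdk4, was 1.95-fold higher (1300 and 1347 scaled reads with acetate, 2594 and 2576 with etomoxir + acetate, adjusted p = 5.2e-05, limma). The other 6, named after their values were seen, were both domains of Smox, the spermine oxidase gene, and those nearest Agpat3, Trim25, Gm17251 (with the start of Rab11b) and Kank3. After median-of-ratios scaling Pdk4 alone of the 10 was called, with Plin2 at 0.20 and Asb4 at 0.46 on the log2 scale (adjusted p = 0.96 for both, limma). Without single libraries the count ran from 1, without acetate replicate 1 or etomoxir + acetate replicate 1, to 363, without etomoxir + SB204990 replicate 2. All 3 agents against acetate called 2 domains higher and 0 lower, Pdk4 and Cpt1a, against 0.0423% of intervals higher, with medians of -0.02 and -0.01. The sets differed in sign. The domains' medians were -0.23 in set 1 and 0.19 in set 2, and those of all tested intervals -0.11 and 0.10.

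Among the 8 domains of fatty acid oxidation and PPAR target genes, 2 were called higher with etomoxir (median 0.24, against 0.11 over all domains), 1 with etomoxir + SB204990 (median -0.13, against -0.28) and 3 with etomoxir in acetate (median 0.51, against 0.38). Of all tested intervals, 0.0563%, 0.0313% and 0.155% were called higher in these 3 comparisons. The list was chosen with results of these data known, and 2 of its called domains are Pdk4 and Cpt1a. No domain of the list was called lower, and its lowest change with etomoxir was 0.07. The 19 EMT and matrix domains had medians of 0.12, -0.27 and 0.34 and the 12 epithelial domains 0.09, -0.32 and 0.35, near the medians of all domains. On the average acetate effect every listed domain was called higher, as were all domains.

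Etomoxir + SB204990 against vehicle called 1 domain higher, Pdk4, against 0.0313% of intervals, and 1 lower, Mmp9, against 0.0219%. The total of 2 became 10 with a block for set and 56 by DESeq2, and ran from 1 to 152 without single libraries, the highest without replicate 1 of all 3 agents. The median over the domains was -0.28 and over all tested intervals -0.14. In set 1 the medians were -0.34 and -0.33, and in set 2, which holds the low library, they were -0.22 and 0.06. After median-of-ratios scaling the domains' median was -0.16. Below 0 in both sets were 1582 domains, and 505 (29.6%) reached an unadjusted p under 0.05, against 21.2% of the intervals of 10 to under 20 kb and 5.06% of all tested intervals. Mmp9 encodes a matrix metalloprotease that degrades collagen IV, and its domain at chr2:164921821-164961924 (40104 bp) also holds the start of the transporter gene Slc12a5. It held 1227 and 1304 scaled reads in vehicle, 1124 and 1061 with etomoxir and 567 and 793 with etomoxir + SB204990. With acetate it held 1805 and 1666, with etomoxir + acetate 1957 and 1817, and with all 3 agents 997 and 1342. Libraries with SB204990 were below those without it at the same acetate state, without overlap. The change from vehicle was 0.53-fold (log2 -0.91, SE 0.18, limma adjusted p = 0.0012), with -1.11 in set 1 and -0.72 in set 2. After median-of-ratios scaling it was -0.79 with adjusted p = 0.21 (limma), and 0.00782% of all tested intervals were called lower.

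Adding SB204990 to etomoxir called 9 domains lower, against 0.0219% of intervals, and 1 higher, against 0.025%. The total of 10 became 17 with a block for set, 600 by DESeq2 and 0 with no filter, and ran from 0, without either etomoxir replicate, to 862, without replicate 1 of all 3 agents. Over all domains the median was -0.39 and over all tested intervals -0.30, with set medians of -0.54 and -0.24 for the domains and -0.68 and 0.14 for all tested intervals. The 9 included transcription factor genes (Trps1, Nfia, Foxc1 and Irx2), the cell cycle inhibitor gene Cdkn2c, 2 domains of the Hist1 cluster, Tsc22d2 and a domain nearest Gm11266. Of these, Trps1, Nfia and Hist1h2ab had the largest changes and the other 6 were named after their values were seen. Trps1 had 6078 and 7366 scaled reads with etomoxir and 4810 and 3122 with etomoxir + SB204990 (log2 -0.79, SE 0.17, limma adjusted p = 0.015), with -0.34 in set 1 and -1.24 in set 2. Hist1h2ab had 2429 and 2529 against 1758 and 1110 (log2 -0.83, adjusted p = 0.0088, limma), with -0.47 and -1.19, and Nfia 2058 and 2375 against 1608 and 1029 (log2 -0.78, adjusted p = 0.018, limma), with -0.36 and -1.21. Groups did not overlap, and the larger drop was in each case in the low library. The vehicle libraries of these 3 domains differed as well, with 5908 and 4077 scaled reads for Trps1, 2355 and 1457 for Hist1h2ab and 1966 and 1303 for Nfia. Gata3 followed the same pattern, with 5602 and 6466 against 4503 and 3039 (log2 -0.70, adjusted p = 0.059, limma), and missed the threshold. None of the 9 was called after median-of-ratios scaling.

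The domain called higher in that comparison, and the 1 called lower with etomoxir against vehicle, were the same interval, chr9:3004218-3038222 (34005 bp), with the starts of 7 predicted genes of similar names (Gm10715 and Gm10717 to Gm10721, and Gm17535). It had the lowest density of all domains, 14.3 scaled reads per kb, and a GC content of 34.8%. Its scaled reads were 482 and 443 in vehicle, 265 and 248 with etomoxir, 259 and 1215 with etomoxir + SB204990, 448 and 563 with acetate, 536 and 428 with etomoxir + acetate and 442 and 525 with all 3 agents. The 1215 came from the low library and was the highest of the 12. The change between etomoxir and etomoxir + SB204990 was -0.03 in set 1 and 2.29 in set 2. That call was kept in 9 of 12 fits without single libraries and 4 of 10 other alternatives. The call with etomoxir against vehicle was kept in 2 of 12 and 4 of 10, and its adjusted p after median-of-ratios scaling was 1.0 (limma). Whether reads of such similar genes can be placed at 1 copy was not tested.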

How the data were processed

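H3K27ac chromatin immunoprecipitation was sequenced in 12 libraries. The authors aligned reads to merged mouse (mm10, GRCm38) and human (GRCh38) genomes and deposited 1 table of 126464 intervals with a signal per library, the read count multiplied by a spike-in factor. No input library was used here. In 2 of the 12 deposited columns the factor was 1, so those values were read counts. They were etomoxir + acetate in set 1 and etomoxir + SB204990 in set 2, each the highest factor of its set. The paper normalized to the highest factor, and whether this was done within each set is not stated. Values may thus not be on 1 scale across sets, which was not tested. Dividing each column by its factor gave whole reads (100% of values within 0.01 reads). How libraries were pooled for interval calling is not given in the sources used here.

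Members are intervals of at least 20000 bp. Members, gene lists and tests were chosen with earlier results of these data known. Coding starts came from GENCODE and sequences from RefSeq (GRCm38.p6). Intervals with a mean of at least 10 scaled reads were fitted on log2(value + 1) as 6 group means with an intensity trend (limma 3.58.1, R 4.3.3), with Benjamini-Hochberg adjustment over 63903 intervals and 11 comparisons made. Sums and shares were tested by exact permutation (scipy 1.17.1). A fold change is on this log2(value + 1) scale. All 12 value columns were used. Alternatives were edgeR 4.0.16 and DESeq2 1.42.0 on recovered reads, other scalings, filters and pseudocounts, length limits, a block for set, and leaving out each library. The fits were tested on simulated counts first.

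Domains named are the 5 longest, the 5 densest, up to 3 per comparison and direction with the largest called change in the same direction in both sets, up to 4 per gene list with the highest level, the 3 on each side of the length limit, and the 3 highest and lowest acetate changes after median-of-ratios scaling. They are labelled by the table's nearest gene, and some are not reported here. Precision is set by counts and by 2 libraries per treatment.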

Additional observations from a re-analysis of the deposited data

How the results depend on the processing

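The summed-signal difference with acetate was 0.43 on the log2 scale (p = 0.111, exact permutation test) when shares of reads were multiplied by the factors, 0.0087 (p = 0.935, exact permutation test) with equal library totals, and 0.583 (p = 0.0556, exact permutation test) without the etomoxir + SB204990 background, an alternative chosen after seeing the data. That last p is the smallest the test can give with the backgrounds left. Without single libraries the summed-signal difference ranged from 0.565 to 0.705. The acetate difference in share was -0.568 points (p = 0.278, exact permutation test) without that background, again chosen after seeing the data. Without single libraries it ran from -0.652 to 0.990 and was negative without acetate replicate 1 (-0.0493), vehicle replicate 2 (-0.0753) and etomoxir + SB204990 replicate 2 (-0.652). The part of the sum of squares between treatments ran from 23.7% to 86.1%, the highest without etomoxir + SB204990 replicate 1. The fit with that highest value leaves the low library alone in its treatment.

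Counts of called domains depended on the processing. They are given in the order acetate against vehicle, etomoxir against vehicle, etomoxir + SB204990 against vehicle, etomoxir + acetate against etomoxir, all 3 agents against etomoxir + SB204990, etomoxir + acetate against acetate, all 3 agents against acetate, etomoxir + SB204990 against etomoxir, and average acetate effect. Median-of-ratios scaling gave 0, 1, 1, 0, 0, 1, 1, 0 and 0. Equal totals gave 0, 7, 16, 0, 0, 5, 9, 0 and 6. Shares times factors gave 0 in all 9. Without the intensity trend the first 8 were 0, 0, 0, 1118, 0, 0, 0 and 0. With no filter, acetate against vehicle had 0, all 3 agents against acetate 1 and etomoxir + SB204990 against etomoxir 0. For acetate against vehicle, etomoxir + SB204990 against vehicle, etomoxir + acetate against acetate and etomoxir + SB204990 against etomoxir, a mean of at least 50 gave 1036, 13, 35 and 17, and DESeq2 gave 1200, 56, 29 and 600. edgeR counts stayed within 1.5 times those reported. The cause of these moves was not tested.

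With a replicate block for set, acetate against vehicle called 356, etomoxir + SB204990 against vehicle 10 and etomoxir + SB204990 against etomoxir 17. The summed-signal difference then had p = 0.03125 (exact permutation test), the smallest that test can give. Deviations of same-set libraries correlated between -0.149 and 0.354 over 15 group pairs, and only the pairs among vehicle, acetate and etomoxir + SB204990 (0.299, 0.327 and 0.354) were over 0.1. As the other 12 were not, set was not used as a pairing. The correlations compare patterns over intervals and do not see an offset common to all intervals of a set. Such an offset between sets was not tested, and the main counts rest on a fit without a block.

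Without single libraries, acetate against vehicle ran from 0 to 1466 (0 without either vehicle or acetate replicate, 1 without either replicate of etomoxir or etomoxir + acetate, 1023 and 1030 without etomoxir + SB204990 replicates 1 and 2, 1466 and 1465 without replicates 1 and 2 of all 3 agents). Etomoxir against vehicle ran from 1 to 7, 1 without vehicle replicate 1 or either etomoxir replicate and 7 without either replicate of all 3 agents. Etomoxir + SB204990 against vehicle ran from 1 to 152, with 122 without its replicate 2 and 152 and 151 without the replicates of all 3 agents. Etomoxir + acetate against etomoxir ran from 1003 (without etomoxir + acetate replicate 1) to 1694, and all 3 agents against etomoxir + SB204990 from 798 (without etomoxir + SB204990 replicate 1) to 1706, with 1077 without replicate 2 of all 3 agents. Etomoxir + acetate against acetate ran from 1 to 363, with 362 and 363 without the etomoxir + SB204990 replicates. All 3 agents against acetate ran from 1 to 3. Etomoxir + SB204990 against etomoxir ran from 0 to 862, 0 without either etomoxir replicate and over 800 without etomoxir + SB204990 replicate 2 or either replicate of all 3 agents. The average acetate effect ran from 1705 to 1707, and the interactions from 0 to 1. A lone library is assumed to vary like the other groups. Pdk4 was called in all 12 such fits of all 4 etomoxir comparisons but in 8 of 10 other alternatives, Cpt1a in 9 of 12 against vehicle, 10 of 12 in acetate and 5 of 12 for all 3 agents against acetate, and Mmp9 in 9 of 12. Having 2 libraries per treatment limits every single-domain comparison.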

Other observations

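Domains were also ranked once the shift shared by all intervals was removed. By the average acetate effect after median-of-ratios scaling the highest 3 domains were those nearest Gm16351 (log2 0.40), Gm49985 (0.31) and Cyp1b1 (0.29), and the lowest 3 were Gm10718 (-0.39), Trps1 (-0.34) and Asb4 (-0.31). Before this scaling the Gm10718 change was 0.56 in set 1 and -0.03 in set 2, where the low library without acetate held 1215 scaled reads, and it ran from -0.10 to 0.64 without single libraries. Before this scaling Trps1 and Asb4 rose by 0.31 and 0.35, less than the domains' median of 0.65. The Trps1 rise was 0.17 in set 1 and 0.45 in set 2, and with acetate added to both inhibitors it was -0.04 in set 1 and 1.19 in set 2, which holds the low library. None was called after this scaling (limma adjusted p 0.35 for Gm16351 and 0.62 for Asb4).

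In the list of writers, erasers and readers of histone acetylation, Brd2, a bromodomain reader, had a domain with 95.8 scaled reads per kb over 22277 bp (nearest gene H2-DMa). It held 1866 and 1614 scaled reads in vehicle and 2578 and 2134 with acetate. The Hdac5 domain held 643 and 877 in vehicle and 1062 and 1237 with acetate. On the average acetate effect Hdac5 rose 1.76-fold (limma adjusted p = 1.9e-12) and Brd2 1.45-fold (limma adjusted p = 5.3e-07), and their difference was not tested. All 1707 domains and 77.2% of tested intervals were called higher on this effect, with a domain median of 1.57-fold, and none of the domains was called after median-of-ratios scaling. In set 1 and set 2 the Brd2 change was 0.40 and 0.68 on the log2 scale. Srebf1, which encodes a transcription factor of lipid synthesis, had a domain of 66407 bp (33.2 scaled reads per kb). It held 1579 and 1837 scaled reads in vehicle and 2318 and 2642 with acetate, 1873 and 1704 with etomoxir and 3473 and 3236 with etomoxir + acetate, and 1192 and 1663 with both inhibitors and 2210 and 2747 with all 3 agents. Its average acetate effect was 0.75 on the log2 scale, and 0.10 after median-of-ratios scaling (limma adjusted p = 0.89).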
